A study of Homo sapiens with 47 samples.

Results

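Importin alpha transcripts were followed as the rows of the deposited expression table that carry the symbols KPNA1, KPNA2, KPNA3, KPNA4, KPNA5 and KPNA6. Each symbol had 1 row, so that 6 of the 57507 genes were taken, and they were followed through all 47 RNA-seq libraries. HAP1, a near-haploid human line that came from a chronic myeloid leukemia, gave 32 libraries, with 4 replicates of every line. These lines were the wild type (WT), a control that had received Cas9 without a guide RNA (EV) and C1–C6, the 6 lines with a mutated NUP58. HCT116, a human colorectal cancer line, gave 15 libraries, of which 4 were labelled as the NUP58-mutated Clone and 11 were unedited controls named WT, EV1 and EV2. Each mutated line grew from 1 sorted or diluted cell and was collected at an early passage, so replicates of a line measure the spread within a clone and not the spread between edited cells. Whole cultures were collected at about the same confluence, and in such bulk RNA fewer cells of a kind and less RNA per cell cannot be told apart.

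Importin alpha proteins are adaptors of nuclear import. They bind the classical nuclear localization signal of a cargo and, through their own amino end, importin beta (KPNB1), which carries the complex through the nuclear pore; RanGTP then takes the complex apart in the nucleus, and the exporter CSE1L returns importin alpha to the cytoplasm. The human family is divided into 3 subfamilies with partly different cargoes. The alpha 1 subfamily was represented here by KPNA2, a gene whose RNA is high in dividing cells. KPNA3 and KPNA4 form the alpha 3 subfamily, known for the import of RCC1 and of NF-kappaB subunits, and KPNA1, KPNA5 and KPNA6 form the alpha 5 subfamily. NUP58, the mutated gene, encodes a subunit of the central channel of the pore, where import complexes pass. The comparisons below ask how much of the family's RNA each paralog contributes, and how each subfamily differed between NUP58-mutated and unedited cells.

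The genes lie apart from each other on GRCh38 (GENCODE release 44). KPNA2 (ENSG00000182481.8) is on the plus strand of chromosome 17 at 68035636–68047364. The alpha 3 genes are KPNA3 (ENSG00000102753.9), on the minus strand of chromosome 13 at 49699320–49792682, and KPNA4 (ENSG00000186432.8), on the minus strand of chromosome 3 at 160495007–160565571. Of the alpha 5 genes, KPNA1 (ENSG00000114030.12) is on the minus strand of chromosome 3 at 122421902–122514945, KPNA5 (ENSG00000196911.10) on the plus strand of chromosome 6 at 116681187–116741867 and KPNA6 (ENSG00000025800.13) on the plus strand of chromosome 1 at 32108056–32176563. The values are of whole genes, with exons summed over transcripts. Reads of KPNA2 and KPNA4 could be shared with 4 annotated pseudogene copies, which stayed low: the highest value of any of them in a library was 1.87 FPKM (KPNA2P3).

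The promoters of KPNA2 and KPNA1 are shown because these are the most abundant member and the most abundant of the alpha 5 genes. They were also the members most often lowest in the library of a line where mitotic genes were lowest, in 7 of 8 HAP1 lines each. KPNA3, KPNA4 and KPNA6 were so in 5 of 8 lines each, and KPNA5 in 1. RefSeq (GRCh38.p14) had promoter windows for 4 of the 6 members, each running from 250 bases before to 50 bases after the gene start in RefSeq. For KPNA2 that start lies downstream of the GENCODE start given above, so its window reaches further past the GENCODE start. In the sequences, read 5′ to 3′ on the strand of the gene, capitals mark matches on either strand to the motifs CCAAT (the box bound by NF-Y), TTTGAA (the CHR element of cell cycle genes), TTTAAA (a variant of it), CGCATGCG (NRF1 core), TTTCGCGC (E2F core), CCGGAAG (ETS core) and GGGCGG (SP1 GC box).
KPNA2 promoter, chr17:68035485-68035784 (plus strand): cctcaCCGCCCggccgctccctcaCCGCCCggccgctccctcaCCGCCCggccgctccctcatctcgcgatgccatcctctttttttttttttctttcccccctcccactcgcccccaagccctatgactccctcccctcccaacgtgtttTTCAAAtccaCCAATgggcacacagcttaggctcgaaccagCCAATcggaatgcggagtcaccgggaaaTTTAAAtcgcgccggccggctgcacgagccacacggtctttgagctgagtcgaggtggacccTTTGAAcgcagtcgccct
KPNA1 promoter, chr3:122514890-122515189 (minus strand): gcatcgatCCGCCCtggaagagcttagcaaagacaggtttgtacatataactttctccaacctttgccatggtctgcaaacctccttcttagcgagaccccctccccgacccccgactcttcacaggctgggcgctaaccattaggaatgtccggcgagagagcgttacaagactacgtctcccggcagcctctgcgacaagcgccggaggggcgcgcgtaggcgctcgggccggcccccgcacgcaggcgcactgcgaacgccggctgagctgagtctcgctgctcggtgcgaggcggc
The KPNA2 window held 2 CCAAT, 2 TTTGAA, 1 TTTAAA and 3 GGGCGG matches, none overlapping. The KPNA1 window held 1 GGGCGG match and none of the other 6 motifs, the KPNA3 window held 3 GGGCGG matches and the KPNA6 window 2 CCAAT matches. No entry was found for KPNA4 and KPNA5. Of all 35116 promoter windows of this length, 34.6% held CCAAT, 15.2% TTTGAA, 12.2% TTTAAA, 2.0% CGCATGCG, 0.5% TTTCGCGC, 10.3% CCGGAAG and 45.0% GGGCGG. A match is a description of the letters and not a site of binding.

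NUP58 itself was low in the mutated HAP1 lines, with a mean FPKM of 9.80 (C2) to 25.5 (C4) against 41.3 ± 8.07 for WT and 40.3 ± 4.57 for EV libraries (SD over 4), and its mean over the clones fell by 1.48 on the log2 scale (standard error 0.131, limma adjusted p = 9.59e-09). In HCT116 the libraries labelled Clone had 29.4 ± 10.3 (SD, n = 4) and the controls 40.5 ± 9.47 (SD, n = 11), a log2 difference of -0.46 (adjusted p = 0.452). The library labelled Clone replicate 3, at 44.7 FPKM, was as high as a control. At 23.9, EV2 replicate 3 as labelled was as low as the other Clone libraries, so the HCT116 comparisons were also run with all libraries numbered 3 left out. For 2 of the HCT116 controls the title and the genotype name different unedited lines. The 10 epithelial markers fixed for HCT116 summed to 1392–2663 FPKM in HCT116 and to 22.0–66.0 in HAP1. Of these 10, 6 were at a mean of 1 FPKM or more in HCT116 and 4 in HAP1. All 3 markers of HAP1 (BCR, ABL1, VIM) were at a mean of 1 FPKM or more in both cell lines. They summed to 89.2–178 FPKM in HAP1 and to 29.4–53.1 in HCT116. Of 10 markers of other blood cells, 5 were at 0 in every HAP1 library. In HAP1, 1 of the 10 was at a mean of 1 FPKM or more. The highest sum of the 10 in a library was 24.021 FPKM in HAP1 and 5.31 in HCT116.

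In unedited HAP1 cells 1 paralog made up most of the importin alpha RNA. KPNA2 had 300, 239, 275 and 342 FPKM in WT replicates 1–4 (mean 289 ± 43.3, SD). It was followed by KPNA3 with 35.2 ± 4.08 and KPNA1 with 34.2 ± 4.21, then by KPNA6 with 16.2 ± 0.907 and KPNA4 with 15.1 ± 2.50, and last by KPNA5 with 5.23 ± 1.70 (SD, n = 4 each). FPKM is scaled by transcript length, so these levels can be compared between genes. The mean of KPNA2 was 8.22 times that of KPNA3, that of KPNA1 was 2.11 times that of KPNA6, and that of KPNA4 was 2.88 times that of KPNA5, each with no overlap between the libraries. KPNA3 and KPNA1 overlapped, as did KPNA6 and KPNA4, and neither member of these pairs was the higher in more than 2 of the 4 WT libraries. The order in EV was the same. A seventh family gene, KPNA7, was near 0 (at most 0.0441 FPKM in HAP1 and 0.170 in HCT116) and was not tested.

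Expressed as shares of the summed FPKM of the 6 genes, KPNA2 made up 73.0% ± 2.95 in WT, KPNA3 8.93% ± 0.876, KPNA1 8.77% ± 1.60, KPNA6 4.16% ± 0.670, KPNA4 3.82% ± 0.605 and KPNA5 1.37% ± 0.597 (SD, n = 4 each). By subfamily this was 12.7% for alpha 3 and 14.3% for alpha 5. EV had close values, with 73.8% ± 0.978 for KPNA2 and 3.48% ± 0.399 for KPNA4. In the 11 HCT116 controls KPNA2 made up 72.3% ± 6.64 (SD), a wider spread that came with a range of KPNA2 from 129 to 471 FPKM.

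In the clones the share of KPNA2 changed little and that of KPNA4 was larger. KPNA2 made up between 70.1% (C1) and 72.4% (C6) by clone. KPNA4 made up 3.82% in WT and 3.48% in EV, against 4.95% for C3, 5.26% for C4, 5.43% for C2, 5.53% for C1, 5.55% for C5 and 6.03% for C6. The share of KPNA3 was 8.80–10.4% in C1–C4, near WT, and 5.72% ± 0.234 (SD, n = 4) for C5 and 6.01% ± 0.288 for C6. The share of KPNA5 was largest in C5 with 2.44% ± 0.794 and in C6 with 2.11% ± 0.884. No test was run on shares. The summed FPKM of the 6 genes was 395 ± 43.5 in WT, 395 ± 9.26 in EV and 412 ± 58.5 over the 24 clone libraries, so the sums differed by less than the spread between replicates.

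**Figure D1:**
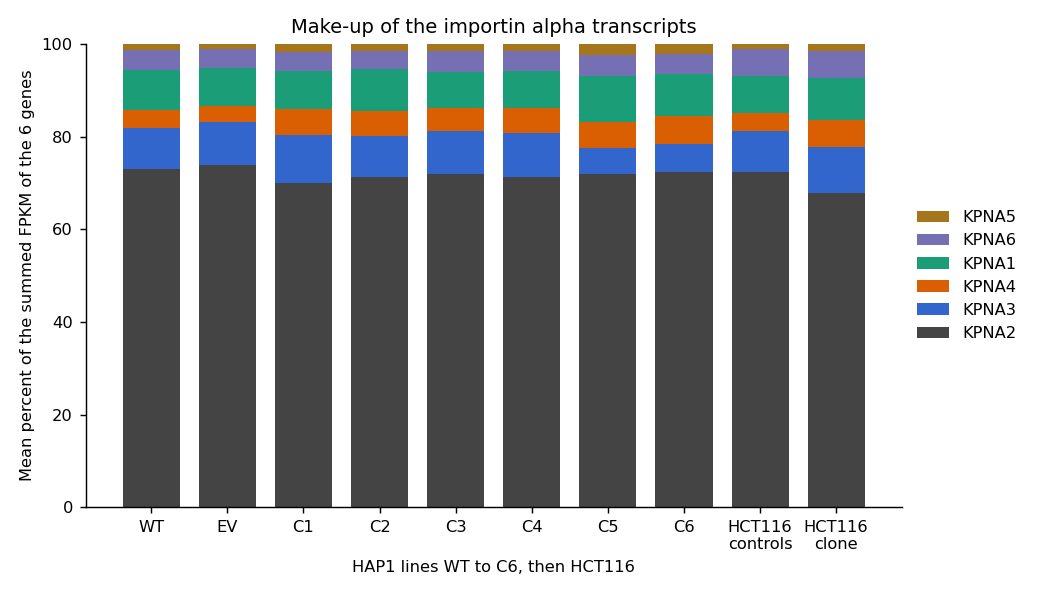
Mean percent of the summed FPKM of the 6 importin alpha genes that each gene made up in each HAP1 line (n = 4) and in HCT116 (11 controls, 4 libraries labelled clone). KPNA2 takes 67.9–73.8% in each column, the KPNA4 segment is larger in C1–C6 than in WT and EV, and the KPNA3 segment is smallest in C5 and C6.

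Over the mean of the 6 HAP1 clones, KPNA4 was the 1 member called against WT. It rose by 0.54 on the log2 scale (standard error 0.105, adjusted p = 0.00150 from limma over all 13180 genes tested). Of the 6 genes 1 was called (adjusted p under 0.05), where 6.6% of all genes tested were called in this comparison. The other log2 differences were 0.05 for KPNA1 (adjusted p = 0.871), 0.02 for KPNA2 (0.951), -0.08 for KPNA3 (0.704), 0.41 for KPNA5 (0.0829) and 0.08 for KPNA6 (0.607). The median of the 6 was 0.06, beside -0.02 for all genes. With a block for the replicate number, pairing libraries that share one, KPNA5 passed as well (adjusted p = 0.0337). Then 2 of the 6 genes were called, beside 12.6% of all genes. The clones are 6 lines and WT is 1. When the means of 8 lines were compared instead, with WT and EV as the reference, KPNA4 differed by 0.60 (adjusted p = 0.0818), a fit in which limma called 2 of 13180 genes and 2462 had an unadjusted p under 0.05. Permuting these line means (exact, two-sided) gave p = 0.0714 for KPNA4 and for KPNA5, the smallest that 28 arrangements allow, so that this design could not pass 0.05.

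**Figure D2:**
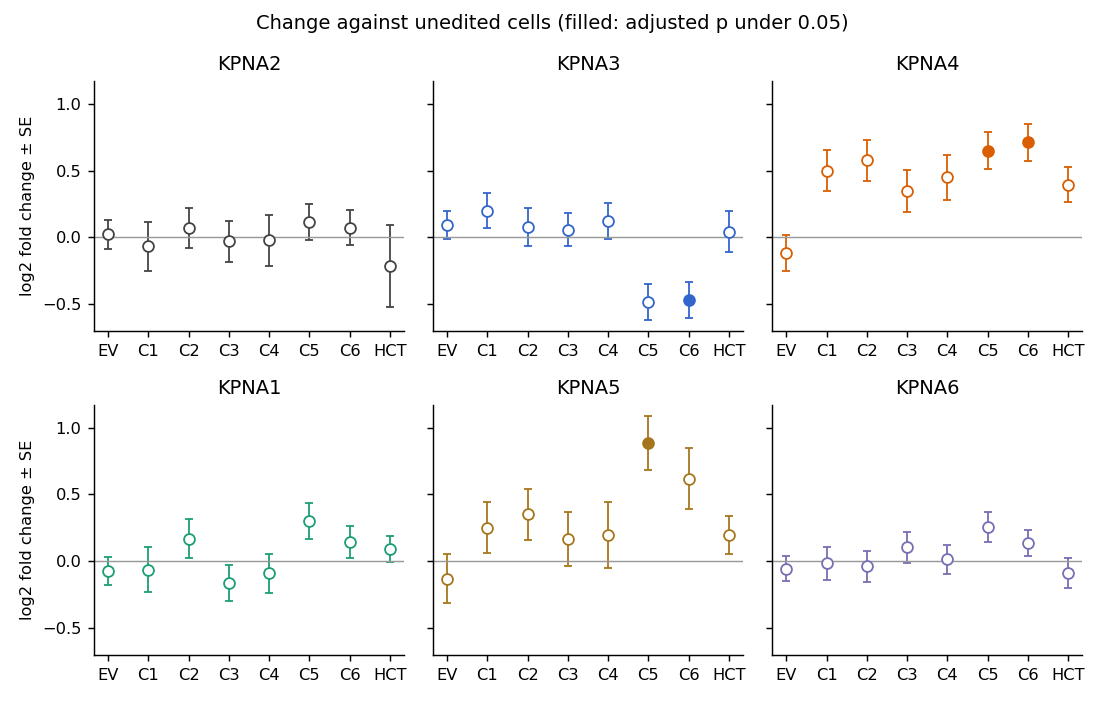
Log2 fold change (± standard error from limma, on log2(FPKM + 1)) of each member in EV and C1–C6 against HAP1 WT, and in the libraries labelled HCT116 clone against 11 controls (HCT), with filled points where the adjusted p was under 0.05. KPNA4 lies above 0 in all 6 clones, KPNA3 is below 0 in C5 and C6 alone among the clones, and KPNA5 is highest in C5.

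KPNA4, of the alpha 3 subfamily, was higher than the WT mean in each of the 24 clone libraries. WT replicates 1–4 had 14.1, 12.3, 18.2 and 15.8 FPKM, and EV had 13.6, 12.9, 15.5 and 12.8. C1 had 22.9, 17.3, 24.004 and 22.4, C2 had 20.7, 21.2, 27.7 and 22.0, and C3 had 23.3, 16.4, 20.2 and 17.7. C4 had 22.6, 15.7, 24.1 and 21.6, C5 had 26.9, 20.7, 24.4 and 24.2, and C6 had 27.4, 23.6, 27.7 and 22.1. All libraries of C2, C5 and C6 lay above all 8 unedited ones, whereas 1 library of C1, 2 of C3 and 1 of C4 overlapped with the highest WT library, so that 20 of 24 lay above all unedited libraries. Each of the 24 was also above the WT library of the same number, while EV was so in 1 of 4. How many of all genes separated in these ways was not counted, here or for the other members below.

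Tested one clone at a time against WT, KPNA4 rose in C5 by 0.65 (standard error 0.140, limma adjusted p = 0.0209) and in C6 by 0.71 (0.140, adjusted p = 0.0102). The log2 differences in C1 (0.50, adjusted p = 0.211), C2 (0.58, 0.131), C3 (0.35, 0.9995) and C4 (0.45, 0.648) did not pass, nor did that of EV (-0.12, 0.9995). The C6 call held without any 1 of its 8 libraries (adjusted p 0.00776–0.0404). The C5 call was lost without C5 replicate 1 (0.0711), 3 (0.0625) or 4 (0.0705) and without WT replicate 1 (0.0635) or 4 (0.0530). With the replicate block the C4 difference passed (adjusted p = 0.0465). With all 32 HAP1 libraries in 1 fit, C1 (0.0382) and C2 (0.0126) passed too, whereas C3 (0.543) and C4 (0.146) did not. Permuting 4 clone and 4 WT libraries (exact, two-sided) gave p = 0.0286, the smallest that 70 arrangements allow, in C2, C5 and C6, before any adjustment for the 42 such tests of a member in a line. KPNA4 did not differ among the 6 clones in the F test of limma (range of the clone means 0.36, adjusted p = 0.344), but with the replicate block it did (0.0360).

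KPNA3, the other alpha 3 gene, was low in C5 and C6. WT replicates 1–4 had 34.7, 29.7, 39.2 and 37.0 FPKM and EV had 36.6, 38.2, 39.5 and 34.96. C5 had 26.1, 20.0, 26.3 and 27.1, and C6 had 25.5, 25.6, 29.2 and 20.3. All 8 libraries of C5 and C6 lay below all 8 unedited libraries, and no library of C1–C4, at 31.1–44.3, did so. KPNA3 fell in C6 by 0.47 on the log2 scale (standard error 0.134, limma adjusted p = 0.0488). In C5 the log2 difference was -0.49 (0.133, adjusted p = 0.0550), and in C1–C4 it was 0.06 to 0.20. The exact permutation test gave the smallest possible p of 0.0286 in C5 and in C6, before any adjustment for the 42 tests of a member in a line. Among the 6 clones KPNA3 differed with a range of means of 0.69 (limma F test, adjusted p = 8.46e-05), a call that held without any 1 of the 24 clone libraries.

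The C6 call of KPNA3 lay close to the threshold. Of 8 fits that left out 1 library it held in 2, those without C6 replicate 3 (0.0461) and without WT replicate 2 (0.0236), and it was lost without C6 replicates 1 (0.107), 2 (0.112) or 4 (0.0988) and without WT replicates 1 (0.102), 3 (0.105) or 4 (0.131). In C5 KPNA3 passed without WT replicate 2 (0.0307). Against EV it passed in both clones, with adjusted p = 0.00828 in C5 and 0.00701 in C6.

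**Figure D3:**
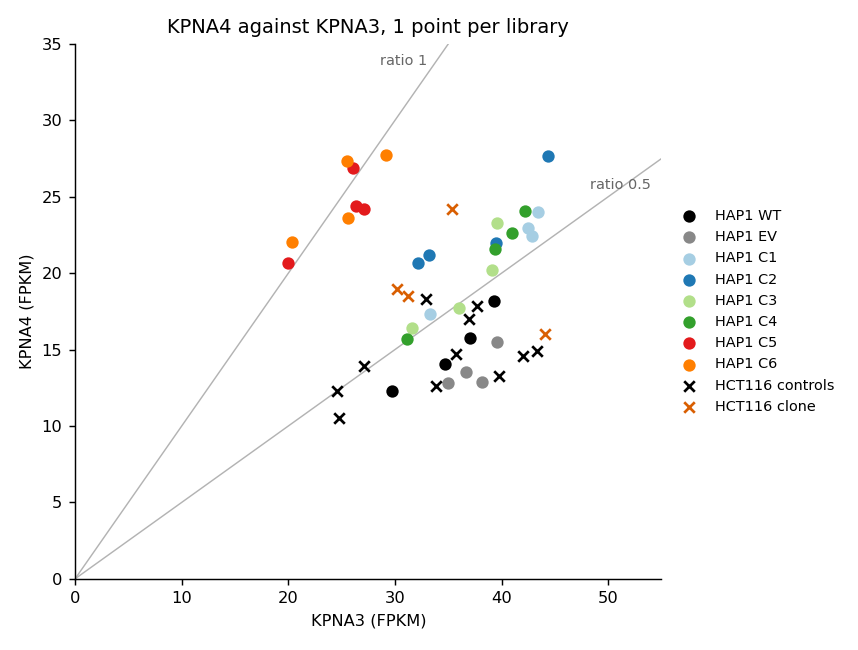
KPNA4 against KPNA3 (FPKM) in each of the 47 libraries, with HAP1 lines as circles, HCT116 as crosses and gray lines at ratios of 1 and 0.5. The 8 libraries of C5 and C6 lie near the line of equal levels, those of C1–C4 lie higher in KPNA4 at a KPNA3 like that of WT, and the 8 unedited HAP1 libraries lie below the line of 0.5.

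The ratio of KPNA4 to KPNA3, which does not depend on how a library was scaled, was 0.427 ± 0.0252 in WT and 0.367 ± 0.0217 in EV. It was 0.534 ± 0.0151 in C1, 0.616 ± 0.0404 in C2, 0.530 ± 0.0416 in C3 and 0.544 ± 0.0282 in C4. C5 and C6 had 0.972 ± 0.0732 and 1.01 ± 0.0831 (SD, n = 4 each). All 24 clone libraries, at 0.492–1.09, lay above all 8 unedited HAP1 libraries, at 0.338–0.463. The summed FPKM of the alpha 3 subfamily was 50.2 ± 6.53 in WT and 51.0 ± 3.00 in EV, and it was 62.2, 60.2, 56.0 and 59.4 in C1–C4. In C5 and C6, where KPNA4 lay above and KPNA3 below all 8 unedited libraries, the sums were 48.9 ± 5.59 and 50.4 ± 6.16, within the spread of WT.

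The genes around KPNA3 were low in the same clones. In C5 the 49 tested genes that start within 5 Mb of KPNA3 had a median log2 difference of -0.70, 29 of them were called lower and none higher. In C6 the median of 49 was -0.63, again with 29 called lower and none higher. Over the whole of chromosome 13, which also holds NUP58, the median was -0.58 (231 genes) in C5 and -0.52 (237 genes) in C6. In C1–C4 the neighbours' medians were -0.02 to -0.18, with 1 of 48 called in C2 and none in the other 3, and in EV the median was 0.01. The part of the neighbourhood in the level of KPNA3 was not tested. KPNA3 itself lay above the median of its neighbours in each clone, at -0.49 in C5 and -0.47 in C6. KPNA4 and KPNA5 also lay above the median of their own neighbours in each clone. For KPNA4 this median was -0.04 to 0.06 in C1–C5, against 0.35 to 0.65 for the gene itself. In C6 it was 0.25 (7 of 25 called higher) against 0.71.

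**Figure D4:**
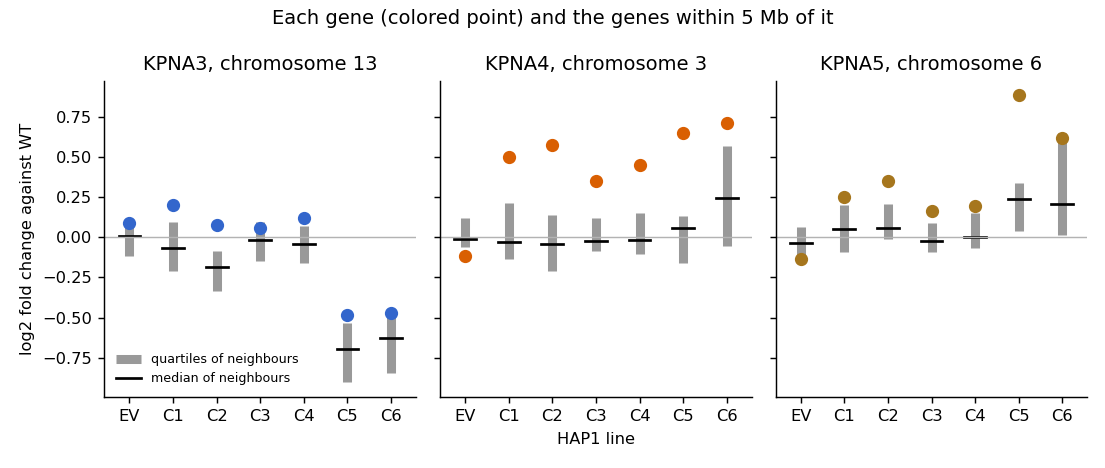
Log2 fold change against WT of KPNA3, KPNA4 and KPNA5 (points) in EV and C1–C6, with the median (black bar) and quartiles (gray) of the tested genes that start within 5 Mb. In C5 and C6 the median of the neighbours of KPNA3 lies at -0.70 and -0.63. KPNA3, KPNA4 and KPNA5 each lie above the median of their own neighbours in each clone.

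Of the alpha 5 subfamily, KPNA5 was high in C5. WT replicates 1–4 had 5.24, 7.62, 4.06 and 3.99 FPKM, and EV had 4.47, 5.06, 4.31 and 4.34. C5 had 8.83, 13.2, 9.65 and 9.57, all above the 8 unedited libraries, and C6 had 6.44, 7.23, 8.28 and 12.2, of which 2 were above all of them. C1–C4 ranged from 3.70 to 8.27 and overlapped with WT. KPNA5 rose in C5 by 0.88 (standard error 0.202, limma adjusted p = 0.0277), with 2 of the 6 members called in C5 where 7.55% of all genes tested were. In C6 the log2 difference was 0.62 (0.230, adjusted p = 0.117), and KPNA3 and KPNA4 made 2 of 6 called beside 11.7% of all genes. KPNA5 also differed among the 6 clones (range of means 0.72, limma F test, adjusted p = 0.0251), so that 2 of the 6 genes were called there, beside 15.8% of all genes. That call was lost without C5 replicate 2 (0.101) or 3 (0.0501).

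The calls of KPNA5 changed with single libraries, while its log2 difference in C5 stayed at 0.768–1.05 without any 1 of them. The C5 call held without WT replicate 2, the highest WT library (adjusted p = 0.00623), and was lost when any other 1 of the 8 libraries was left out: C5 replicates 1 (0.0530), 2 (0.0578), 3 (0.0643) and 4 (0.0714), and WT replicates 1 (0.0660), 3 (0.0683) and 4 (0.0837). In C6 KPNA5 passed without WT replicate 2 (0.0341). For the mean of the clones, KPNA5 passed without C3 (0.0432), without C4 (0.0499) or without WT replicate 2 (0.0200), and its value without C5 was 0.31 (0.236). The genes within 5 Mb of KPNA5 had medians of 0.24 in C5 (0 of 23 called in either direction) and 0.21 in C6 (7 of 24 called higher).

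KPNA1, the most abundant alpha 5 gene, was not called in any clone. Its highest mean was in C5, with 47.2, 37.3, 48.6 and 37.0 FPKM against 39.4, 35.995, 30.6 and 31.01 in WT, a log2 difference of 0.30 (standard error 0.134, limma adjusted p = 0.212). It was lowest in C3 with a mean of 30.5. With the replicate block it differed among the clones (adjusted p = 0.0273), and without the block it did not (0.114). KPNA6 was called in no clone either. All 4 libraries of C5 (22.4, 17.4, 19.8 and 19.0) and of C6 (18.2, 18.1, 18.0 and 17.5) lay above all 8 unedited libraries, at 15.0–17.0. The log2 differences were 0.26 in C5 (adjusted p = 0.202) and 0.14 in C6 (0.423). The exact permutation test gave the smallest p of 0.0286 in both, unadjusted, as it did in 8 of the 42 tests of a member in a line. Of all genes, 3076 of 13164 in C5 and 3533 of 13371 in C6 had an unadjusted limma p under 0.05. The summed FPKM of the alpha 5 subfamily was 55.7 ± 5.65 in WT, 72.5 ± 6.68 for C5, 64.3 ± 2.32 for C6 (SD over 4 libraries) and 53.9 to 61.3 by clone in C1–C4.

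KPNA2, the alpha 1 gene, was not called in any line, and its log2 differences from WT ranged from -0.07 in C1 to 0.11 in C5. Its libraries spread widely within a line. Replicate 2 was the lowest of its line in WT (239 FPKM), C1 (186), C2 (233), C3 (216), C4 (198) and C5 (257), whereas in C6 replicate 4 was the lowest (253). In 7 of the 8 HAP1 lines the library with the lowest KPNA2 was the one with the lowest sum of 10 mitotic genes (CCNB1, CDC20, PLK1, AURKA, TPX2, TOP2A, BUB1, CENPE, MKI67 and UBE2C), and in 7 of 8 it was the one with the highest ASNS, a gene of the amino acid stress response. KPNA1 was lowest with the mitotic sum in 7 of 8 lines and lowest at the highest ASNS in 5 of 8. KPNA3, KPNA4 and KPNA6 were lowest with the mitotic sum in 5 of 8 lines each, and KPNA5 in 1. Beside ASNS, KPNA5 went the other way, with its highest library at the highest ASNS in 6 of 8 lines. KPNA3 and KPNA4 were each lowest at the highest ASNS in 6 of 8, and KPNA6 in 5 of 8. The part of growth state in the members' levels was not tested. With ASNS as a covariate the mean KPNA4 difference was 0.53 (adjusted p = 1.17e-05).

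In the fits of 1 line and WT without a block, no member was called in C1–C4 or EV. The replicate block called 1 in C4. With EV, WT and EV, or all HAP1 libraries in 1 fit, 1 was called in C1 and 1 in C2. Among all genes, limma called in the fits without a block 0.479% for C1, 0.732% for C2, 0.0911% for C3, 0.16% for C4 and 0.038% for EV. Without moderation (unequal variances) no member was called in any HAP1 line. That test called 3.67% of all genes in C5, 5.08% in C6 and at most 0.0229% in C1–C4 and EV. KPNA4 had an unadjusted p under 0.05 in each of C1–C4 and no other member did in these clones. Of all genes tested, 1542 of 13160 had one in C1, 1666 of 13120 in C2, 633 of 13179 in C3 and 870 of 13125 in C4. In EV none of the 6 members had an unadjusted p under 0.05, beside 274 of 13153 genes.

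Among other genes of the importin alpha cycle, 1 was called in C6 and among the clones. Of all genes tested, 6.6% were called over the mean of the clones, 7.55% in C5, 11.7% in C6 and 15.8% among the clones. Of 12 listed genes (KPNA7, KPNB1, SNUPN, CSE1L, RAN, RCC1, RANGAP1, RANBP1, RANBP2, NUTF2, NUP50 and NUP153) 11 were tested. None was called over the mean of the clones, in C1–C5 or in EV, and the median log2 difference over the mean of the clones was -0.09, with values from -0.23 to 0.17, beside -0.02 for all genes. In C6, NUP153, a nucleoporin of the nuclear basket that binds importins, fell by 0.95 (standard error 0.129, limma adjusted p = 0.00155). It was also the 1 gene of this list that differed among the clones (range 0.92, adjusted p = 5.69e-05). Set against their partners, the summed FPKM of the 6 importin alpha genes was 1.75 ± 0.450 times that of KPNB1 in WT (n = 4) and 1.67 ± 0.310 times over the 24 clone libraries, and 2.41 ± 0.182 and 2.77 ± 0.307 times that of CSE1L (SD). Of the 10 mitotic genes, AURKA fell over the mean of the clones by 0.57 (adjusted p = 0.00471) and in C5 by 0.64 (adjusted p = 0.0208), and CENPE rose in C6 by 0.56 (adjusted p = 0.0102). No other gene of the mitotic list was called in a clone or in EV.

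In HCT116 no member was called in the libraries labelled Clone against the 11 controls. Of all 12960 genes tested, 0% were called (limma found 0, with 1342 at an unadjusted p under 0.05, and an unmoderated test with unequal variances found 17). With all libraries numbered 3 left out, 5.92% (769 of 13000) were called and still no member, and without the library labelled Clone replicate 3 alone, 4.27% and no member. KPNA4 had 24.2, 19.0, 16.0 and 18.5 FPKM in Clone replicates 1–4, and 10.5 to 18.3 with a median of 14.6 in the controls. Replicates 1, 2 and 4 lay above all 11 controls, and the library labelled Clone replicate 3 lay among them. The log2 difference of KPNA4 was 0.39 (standard error 0.134, adjusted p = 0.357), and permuting the 15 libraries (exact, two-sided) gave an unadjusted p = 0.0132. With all libraries numbered 3 left out it was 0.52 (adjusted p = 0.0503). KPNA5 differed by 0.20 (adjusted p = 0.645) and, without the libraries numbered 3, by 0.39 (0.0888).

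The remaining log2 differences in HCT116 were 0.09 for KPNA1 (limma adjusted p = 0.783), -0.22 for KPNA2 (0.834), 0.04 for KPNA3 (0.943) and -0.09 for KPNA6 (0.811). Without the libraries numbered 3 they were 0.12 for KPNA1 (0.570), -0.40 for KPNA2 (0.540), -0.07 for KPNA3 (0.855) and -0.08 for KPNA6 (0.730). KPNA2 varied most, and its difference was -0.41 without the library labelled Clone replicate 3 and -0.10 without Clone replicate 4. It was 225, 214, 356 and 186 FPKM in Clone replicates 1–4, 129–170 in the 3 controls numbered 1 and 423–471 in the 3 controls numbered 4. The 10 mitotic genes summed to 386–564 FPKM in these controls numbered 1 and to 1098–1480 in those numbered 4, and to 463–601 in the Clone replicates 1, 2 and 4 and 960 in the library labelled Clone replicate 3. All 10 mitotic genes had a log2 difference below 0 (median -0.46) and none was called. No gene of the importin alpha cycle was called either (median -0.07 over 11 tested). The ratio of KPNA4 to KPNA3 was 0.567 ± 0.140 in the Clone libraries (n = 4) and 0.431 ± 0.0764 in the controls (SD, n = 11). The libraries labelled Clone replicate 3, at 0.364, and EV2 replicate 3, at 0.557, overlapped with the other group. Clone replicates 1, 2 and 4, at 0.684, 0.627 and 0.593, lay above all 11 controls, whose highest ratio was otherwise 0.513.

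Whether the clone effect differed between HCT116 and HAP1 was tested directly. None of the 6 members was called, beside 1.8% of all 13629 genes tested, and none had an unadjusted p under 0.05. For KPNA4 the effect in HCT116 minus that in HAP1 was -0.14 (standard error 0.165, limma adjusted p = 0.779), and for the other members the adjusted p was 0.605–0.949. With all HCT116 libraries numbered 3 left out, a choice made after seeing the data, again no member was called, beside 6.67% of 13632 genes, and the value was -0.02 for KPNA4 (adjusted p = 0.963), -0.42 for KPNA2 (0.5255) and -0.02 for KPNA5 (0.978), where with all libraries it was -0.24 for KPNA2 and -0.21 for KPNA5. That no member was called does not show that the effects were equal.

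Unedited HAP1 and HCT116 cells differed in 1 member. KPNA6 was lower in the 8 unedited HAP1 libraries, at 15.0–17.0 FPKM, than in the 11 HCT116 controls, at 16.3–27.3 with a median of 21.2, a log2 difference of -0.40 (standard error 0.081, limma adjusted p = 0.000157). That was 1 of 6 called, where 68% of all genes tested were. KPNA1 was higher in HAP1 by 0.16 (adjusted p = 0.0631), and by 0.23 after scaling to TPM (0.0222). It also passed without HAP1 EV replicate 3, HCT116 EV2 replicate 2 or the HCT116 control titled WT replicate 4. The values were 0.06 for KPNA2, 0.09 for KPNA3, -0.01 for KPNA4 and 0.14 for KPNA5, none called, and the signs of KPNA2 and KPNA3 turned with scaling by median ratios and that of KPNA4 with scaling to TPM. The median over all genes was 0.10 in this comparison, 0.17 after scaling to TPM and 0.001 after scaling by median ratios. Of the 11 tested cycle genes 8 were higher in HAP1 and none lower, among them KPNB1 (0.53), CSE1L (0.48) and RANBP1 (0.74). Of the 10 mitotic genes 5 were higher and 1 lower, and the log2 differences of the 10 ran from -6.11 to 1.475. The order of the paralogs in HCT116 was that of unedited HAP1, with KPNA6 above KPNA4 in mean (21.5 ± 3.21 against 14.6 ± 2.41 FPKM, SD, n = 11) and higher in 11 of 11 libraries.

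The genes most like each member across the 32 HAP1 libraries were sought by Pearson's r of log2(FPKM + 1) over 13174 other genes. These r values are descriptions, since the libraries share lines, growth state and scaling. KPNA3 was most like POMP (0.947), RFC3 (0.937) and DIS3 (0.935), all on chromosome 13. KPNA4 was most like TNPO1, which encodes the import receptor transportin 1 (0.930), and then RASSF1 (0.895) and PPAT (0.876). KPNA1 was most like PLK1 (0.841) and TPX2 (0.832), both mitotic genes of the list above, and GART (0.823). KPNA2 was most like MAT2B (0.915), PGAM1 (0.888) and PSMA2 (0.883), and KPNA5 like TMTC2 (0.898), MGEA5 (0.885) and ZBTB5 (0.881). The 3 genes most like KPNA6 included PSME4 (0.800) and GSPT1 (0.792). Among the members themselves, r was 0.707 for KPNA1 with KPNA2, -0.769 for KPNA3 with KPNA5 and -0.126 for the alpha 3 pair KPNA3 and KPNA4.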

How the data were processed

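Bulk RNA was sequenced from 32 HAP1 and 15 HCT116 libraries, which the study describes as experimental replicates, made from total RNA. Per the submitters' processing notes, the authors used FastQC, STAR, RSEM and GRCh38. They deposited FPKM, that is fragments divided by the length of the transcript and by all mapped fragments, for 57507 genes and did not normalise further between libraries. All columns were mapped to a sample through its description, and samples to groups through their titles. The number of fragments behind a value is unknown. Relative depth, read from the value of 1 fragment in genes under 0.15 FPKM, was 0.749–1.16 in HAP1 and 0.760–0.981 in HCT116, and the FPKM of a library summed to 604053–721992. Reads, counts and proteomics were not analysed here.

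Values were taken as log2(FPKM + 1), which understates changes of low genes. Each comparison used the genes whose mean over its libraries was at least 1 FPKM. They were tested in R 4.3.3 by limma 3.58.1 (lmFit, then eBayes with trend), p-values were adjusted over all of them by the Benjamini-Hochberg method, and adjusted p under 0.05 was called. Single clones and EV were compared with WT, the clones' mean with WT in a fit over 32 libraries, and HCT116 Clone with 11 controls. Exact permutation tests were two-sided. Shares and sums were not tested. Tests were tried on simulated data. Positions came from GENCODE release 44, which placed 56373 genes (98.0%). Tables, exact tests and figures used Python 3.11.15, numpy 2.4.6, pandas 2.3.3, scipy 1.17.1 and matplotlib 3.10.9.

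Named were all members, the transport cycle and mitotic lists, NUP58, ASNS and, for each member, the 3 genes with the highest r, of which 1 is not reported here. Members and lists were chosen with earlier results of these data known. Same-numbered libraries of a line and WT deviated together (r over 0.1 in all 4 pairs) in C1–C4 and EV. In all, 24 of 28 pairs did so, with r from -0.375 to 0.747. The main fits did not use this pairing in any line. A block for the replicate number was an alternative in every line, also in C5 and C6, where not all pairs deviated together. Alternatives were a pseudocount of 0.1, no filter, scaling to TPM or by median ratios, no trend, a replicate block, other references, 1 fit of all HAP1 libraries, line means, ASNS as a covariate, an unmoderated test, unadjusted p under 0.01 with a fold change over 2, other HCT116 controls, and leaving out each library or clone. Leaving the HCT116 libraries numbered 3 out of the test between cell lines was chosen after seeing the data.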

Additional observations from a re-analysis of the deposited data

Results flagged for a closer look

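In 5 of 60 sets of 4 libraries (1 member in 1 line), 1 library stood apart from the others of its line by Dixon's criterion, which chance alone exceeds in about 5% of sets. KPNA2 in C5 replicate 2 was 256.6 FPKM, where the other C5 libraries had 323.0–335.5. KPNA3 in C1 replicate 2 was 33.29 (others 42.52–43.45) and in C5 replicate 2 was 19.96 (others 26.08–27.1). KPNA6 in C3 replicate 1 was 20.55 (others 16.36–16.66), and KPNA1 in HCT116 EV2 replicate 2 was 34.47 (others 28.31–29.34). The clones differed from each other in KPNA3, with a range of the 6 clone means of 0.685 on the log2 scale (limma F test, adjusted p = 8.46e-05), and in KPNA5, with a range of 0.72 (adjusted p = 0.0251).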

How the results depend on the processing

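Of 664 log2 fold changes recomputed for 28 values, 593 kept their direction and side of the threshold, 33 lost and 12 gained the call, and 26 turned direction. Of 300 recomputed shares, 0 moved by over 1 SD. Over the mean of the clones 2 members were called instead of 1 with scaling by median ratios, the replicate block, EV or WT and EV as reference, or ASNS as a covariate, through KPNA5 (0.418, 0.409, 0.542, 0.476 and 0.420). Of all genes, 6.87%, 12.6%, 8.47%, 17.5% and 14.7% were called in these settings, against 6.6% in the main fit. With line means 0 members were called, through KPNA4 (0.598), beside 0.0152% of all genes. With EV, WT and EV, or all HAP1 libraries in 1 fit, 1 member was called in C1 (beside 1.59%, 3.73% and 3.32% of all genes) and 1 in C2 (1.89%, 4.79% and 4.07%). With the replicate block 1 was called in C4 (2.43%) and 4 among the clones (25.9%). In C5 there were 1 with no filter (beside 3.48% of all genes), 5 with WT and EV (18.7%), and 0 with the unmoderated test (3.67%) or with unadjusted p under 0.01 plus more than 2-fold change (2.31%). In C6 there was 1 with no filter (5.82%), TPM (12%), median ratios (11.9%), no trend (11.3%) or the replicate block (9.81%, with KPNA3 at adjusted p = 0.0656). There were 0 with the last 2 of the C5 settings (5.08% and 3.65%). With EV as reference, 3 were called in C5 (14.4%) and 3 in C6 (20.3%). All HAP1 libraries in 1 fit gave 3 in C5 (12.3%) and 3 in C6 (15.7%), and WT and EV gave 3 in C6 (23.3%). The block called 3 members in C5 (16.3% of all genes), KPNA3 included (0.00971), and changed no call in HCT116. In C5 and C6 it pairs libraries that did not all deviate together. In HCT116, KPNA2 turned to 0.218 and KPNA6 to 0.066 against the 2 controls labelled WT, and KPNA3 to -0.065 without the libraries numbered 3. Between the cell lines 2 members were called with TPM, beside 68.4% of all genes. KPNA2 turned to -0.048 and KPNA3 to -0.017 with median ratios, and KPNA4 to 0.060 with TPM, 0.050 against HAP1 WT alone and 0.018 with 9 controls whose labels agree. The causes were not tested.

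Leaving out 1 library or clone gave 1–2 members over the mean of the clones, 0–3 in C5, 1–3 in C6, 1–3 among the clones and 1–2 between the cell lines. Of all genes, 3.73–8.89%, 3.79–9.05%, 6.17–15%, 12.7–17.8% and 65.9–68.2% were called in these fits. Fold changes then ran from -0.003 to 0.115 for KPNA1, from -0.065 to 0.107 for KPNA2 and from 0.315 to 0.578 for KPNA5 over the mean of the clones, from -0.069 to 0.107 for KPNA3 in HCT116, from -0.028 to 0.090 for KPNA1 in the test between cell lines' clone effects, and from -0.045 to 0.140 for KPNA2 and from -0.056 to 0.023 for KPNA4 between unedited cell lines. With 4 libraries a line, depth unknown and 1 HCT116 clone, differences near the spread between replicates could not be resolved.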
